A study of Sus scrofa with 6 samples.

Results

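Solute carriers are the membrane proteins, named SLC with a family number and a member, that move amino acids, sugars, ions, nucleotides and cofactors into and out of cells and organelles. The genes described here are the 64 of 355 solute carrier rows in the expression table whose mean over all 6 porcine oocyte samples reached at least 1 FPKM (fragments mapped to a gene, scaled by transcript length and library size), among 29861 rows in all. The members were thus chosen by their measured FPKM, and how high they are is given with no test. Of the remaining rows, 109 had a mean from 0.1 to under 1 FPKM, 141 were above 0 but under 0.1 FPKM, and 41 were listed at 0 in every sample. Of the members, 52 were at 1 FPKM or more in the mean of each group and 48 in every sample. The other 12 (SLC2A8, SLC7A8, SLC25A11, SLC26A4, SLC27A3, SLC31A1, SLC35E1, SLC35E3, SLC38A2, SLC39A9, SLC39A10 and SLC41A2) had a group mean under 1 FPKM and passed through the groups in which they were higher, so for these the choice itself favours a difference between groups. Just inside the limit lay SLC2A8 at 1.01 and SLC39A9 at 1.03 FPKM, and just outside it SLC7A9 at 0.975 and SLC25A33 at 0.938 FPKM.

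RNA from oocytes of 3 groups was sequenced, with 2 samples each. Control oocytes were matured in vitro, heat-stressed oocytes spent the first 24 hours of maturation at a raised temperature, and NMN-supplemented oocytes had the same heat stress with nicotinamide mononucleotide (NMN), a precursor of the coenzyme NAD+, in the medium. NMN was given only together with heat, so its effect on unheated oocytes is not in the design. The labels give the stage as GV (germinal vesicle, before meiosis resumes) and 24 hours, whereas the methods describe metaphase II oocytes, and the stage is therefore not taken as settled here. Each sample is RNA of pooled oocytes, neither the labels nor the methods say whether the 2 samples of a group came from separate cultures, and P-values measure only the spread between them. In such pools, fewer cells and less RNA per cell cannot be told apart.

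Mitochondrial carriers of family SLC25 exchange nucleotides, acids and cofactors across the inner mitochondrial membrane, and family SLC35 brings nucleotide sugars into the Golgi and endoplasmic reticulum for glycosylation. Families SLC30 and SLC39 control zinc in opposite directions, since SLC30 proteins move zinc out of the cytosol and SLC39 proteins bring it in. Zinc is known to accumulate in the mammalian oocyte during maturation and to be released at fertilization. The oocyte takes up little glucose itself and depends largely on pyruvate and amino acids that the surrounding cumulus cells supply.

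Depth is unknown because the table holds no read counts. The FPKM of a sample summed to 163929 to 290136, of which mitochondrially encoded transcripts made up 61.7% to 66.4% in control, 62.4% and 71.6% after heat stress and 74.2% and 74.7% with NMN. Heat-stressed replicate 1 stood apart, because LOC100513953 was at 40366 FPKM in it and listed at 0 in the other 5 samples. Of 12 oocyte markers 10 had a mean of at least 1 FPKM, and the 12 summed to 2789 to 3545 FPKM. Of the 10, 4 were lower in NMN-supplemented than in control oocytes at an adjusted P under 0.05, against 9.17% of all genes. With heat alone 4 were lower than in control at an unadjusted P under 0.05, against 10.1% of all genes, and 0 at an adjusted P under 0.05. Of 20 cumulus cell markers in the table only INHBA reached 1 FPKM and 4 were listed at 0 throughout. The 20 summed to 18.7 and 15.3 FPKM in control, 12.3 and 9.42 under heat stress and 6.73 and 12.5 with heat and NMN. INHBA alone was at 16.4 and 13.2, 10.2 and 6.44, and 4.35 and 10.2 FPKM in the same order. It made up most of each sum, so the differences in the sum are largely those of 1 gene. The 4 blood cell markers summed to between 0 and 0.180 FPKM. The part of the mitochondrial share and of the cumulus sum in the differences below was not tested.

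The share of solute carrier rows that reached 1 FPKM, 18.03%, was close to the 15.8% of all rows, and it varied by substrate class. It was 15 of 45 rows for the mitochondrial family SLC25, 8 of 27 for family SLC35, 19 of 90 for ion carriers, 9 of 61 for amino acid carriers, 3 of 29 for sugar carriers and 9 of 99 for carriers of other substrates. SLC7A6OS, which is named for lying opposite SLC7A6, is no transporter and counts apart. The members' means ran from 1.01 to 56.3 FPKM with a median of 2.51 FPKM, against 3.15 FPKM for all 4713 genes at this minimum. The highest were the neutral amino acid and glutamine carrier SLC1A5 (56.3 FPKM), the ADP/ATP carrier SLC25A5 (48.9), the Golgi sulfate donor carrier SLC35B2 (44.9), the copper carrier SLC31A2 (38.8) and the ADP/ATP carrier SLC25A6 (35.2). The 11 members at 10 FPKM or more held 66.8% to 71.3% of the members' summed FPKM in each sample, while 25 members were under 2 FPKM. Replicates differed by a median of 1.21 times in control, 1.19 times in heat-stressed and 1.12 times in NMN-supplemented oocytes, and most in SLC38A2, whose control samples differed 2.57 times.

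**Figure D1:**
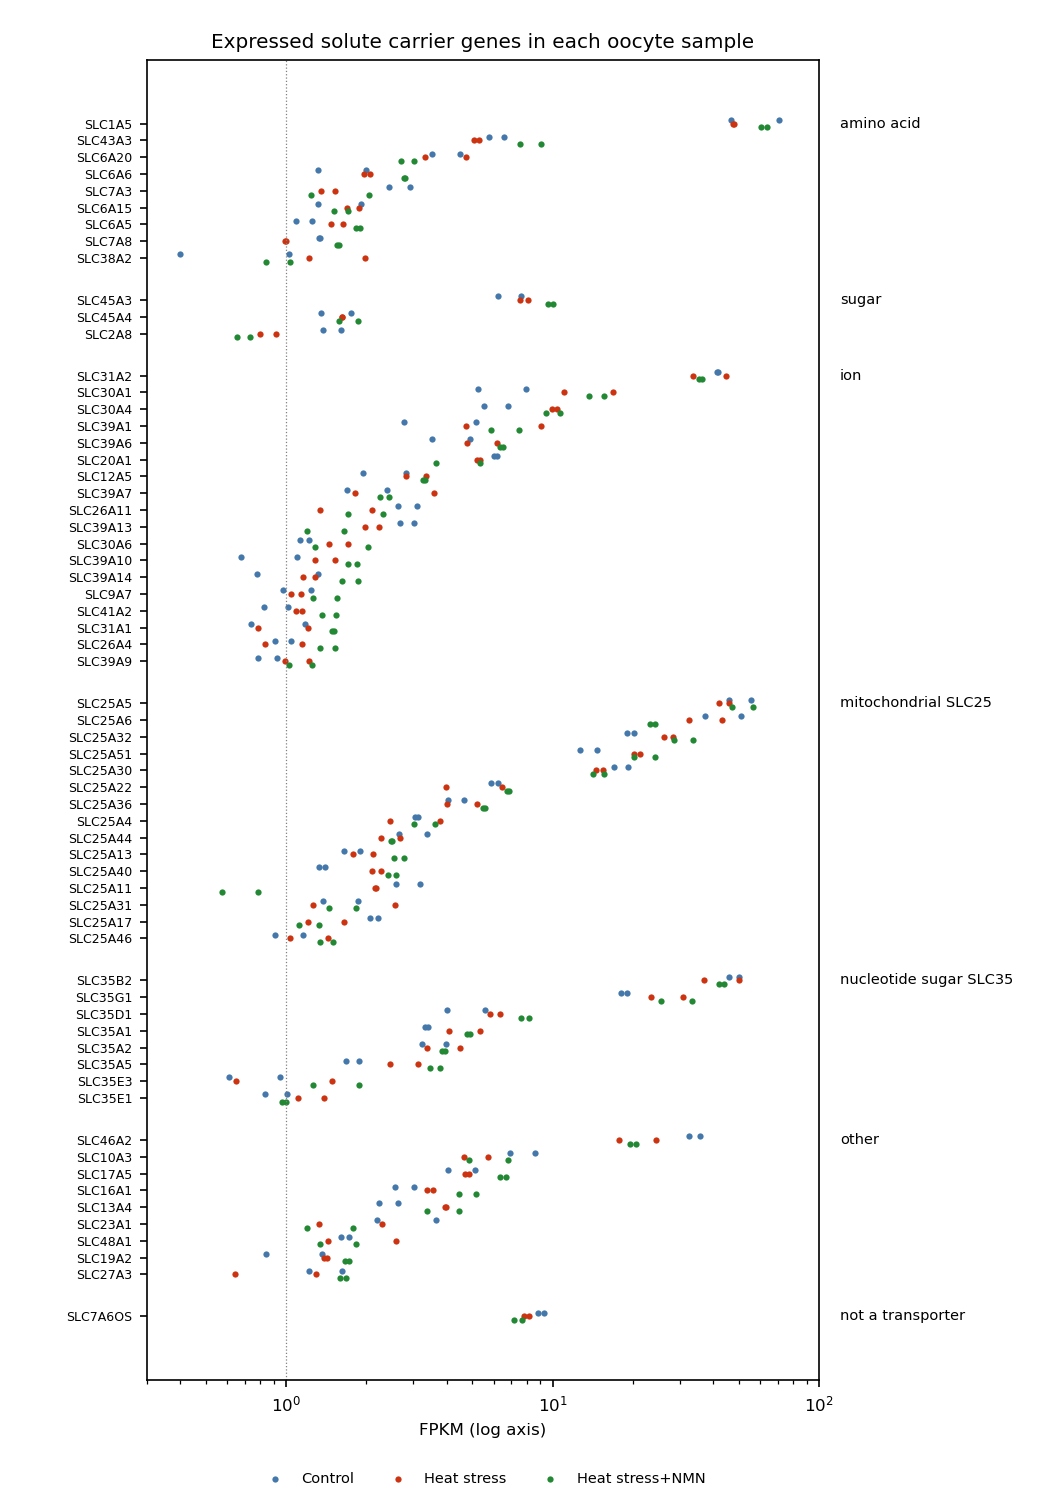
FPKM of 63 of the 64 members on a log axis, one row per gene ordered by class and mean, with one point per sample (control blue, heat stress red, heat stress with NMN green) and a dotted line at 1 FPKM. Most members lie between 1 and 10 FPKM, and the 3 groups lie close together relative to the spread between genes.

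Carriers that oocyte and NAD studies often name were partly below the limit. SLC12A8, reported elsewhere as a carrier of NMN itself, had a mean of 0.210 FPKM, with all 6 samples between 0.139 and 0.271 FPKM. The heat-stressed samples were the lowest, but at this low level the gene was not fitted and the order was not tested. SLC2A1 and SLC2A3, the main glucose carriers of many cells, were at means of 0.0799 and 0.00665 FPKM, the cystine carrier SLC7A11 at 0.915 and the mitochondrial phosphate carrier SLC25A3 at 0.639. The glycine carrier SLC6A9 was listed at 0 in every sample, in a locus shared with another gene. Of 13 NAD and nucleoside carriers in the table, only SLC25A51 and SLC25A17 were members, and 3 were listed at 0 in all samples.

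The first comparison asks how heat stress alters the carriers. Genes were compared on log2(FPKM + 1), which makes the differences of low genes smaller than their FPKM ratios, with limma over all 4713 genes, and a gene was called at an unadjusted P under 0.05. In heat-stressed against control oocytes 16 of 64 members were called, or 25.0%, against 22.8% of all genes, and none of the members or of all genes had an adjusted P under 0.05. Of the called members 10 were higher and 6 lower, against 12.7% and 10.1% of all genes. The median log2 difference of the members was 0.09, against 0.05 for all genes, and the samples of both groups did not overlap in 34 members, against 54.7% of all genes. The count was 8 (4 higher, 4 lower) without control replicate 2, 15 (14 higher, 1 lower) without control replicate 1, and 5 (0 higher, 5 lower) when the samples were scaled to the same sum of nuclear FPKM, a scaling that the LOC100513953 level of heat-stressed replicate 1 enters. That scaling moved the median of all genes to -0.22 and that of the members to -0.13. Leaving LOC100513953 out of the sum gave 13 (8 higher, 5 lower).

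NMN-supplemented against heat-stressed oocytes address what NMN adds under heat. Here 7 members were called, which is 10.9% against 13.6% of all genes. Of these 4 were higher and 3 lower, against 7.15% and 6.45% of all genes. Samples of both groups did not overlap in 33 members, against 53.5% of all genes, and again no gene had an adjusted P under 0.05. Medians were 0.09 for the members and 0.08 for all genes. Under the same-sum scaling the median of all genes moved to 0.35 and 3 members were called (2 higher, 1 lower), and without NMN replicate 1 there were 2. The most members were called between NMN-supplemented and control oocytes. There 28 were called, or 43.8% against 41.3% of all genes, 21 higher and 7 lower against 25.6% and 15.7%. The groups did not overlap in 52 members, against 69.9% of all genes, and 13 of 64 had an adjusted P under 0.05, against 21.5% of all genes. The median was 0.20 for the members and 0.11 for all genes. Of these 13, 8 rose (SLC16A1, SLC25A32, SLC25A40, SLC25A51, SLC30A1, SLC30A4, SLC35A5 and SLC35D1) and 5 fell (SLC2A8, SLC25A6, SLC25A11, SLC39A13 and SLC46A2), against 12.4% and 9.17% of all genes. In all 3 comparisons, then, the share of members called was near that of all genes.

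The adjusted calls depended on single samples and on the genes tested with them. There were 0 without control replicate 2, without NMN replicate 1 or without NMN replicate 2, 2 without control replicate 1, and 9 without heat-stressed replicate 1 or without heat-stressed replicate 2. There were 2 with the replicate number as a block, 1 with the same sum of nuclear FPKM (6 with LOC100513953 left out of the sum), 8 after quantile normalization, and 1 and 0 with a minimum mean of 0.1 FPKM and no minimum. Unadjusted calls numbered 16, 18 and 17 without control replicate 2, NMN replicate 1 and NMN replicate 2, and 3 (2 higher, 1 lower) with the same nuclear sum. Each pair of comparisons shares the samples of one group, so their differences are not independent of each other.

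**Figure D2:**
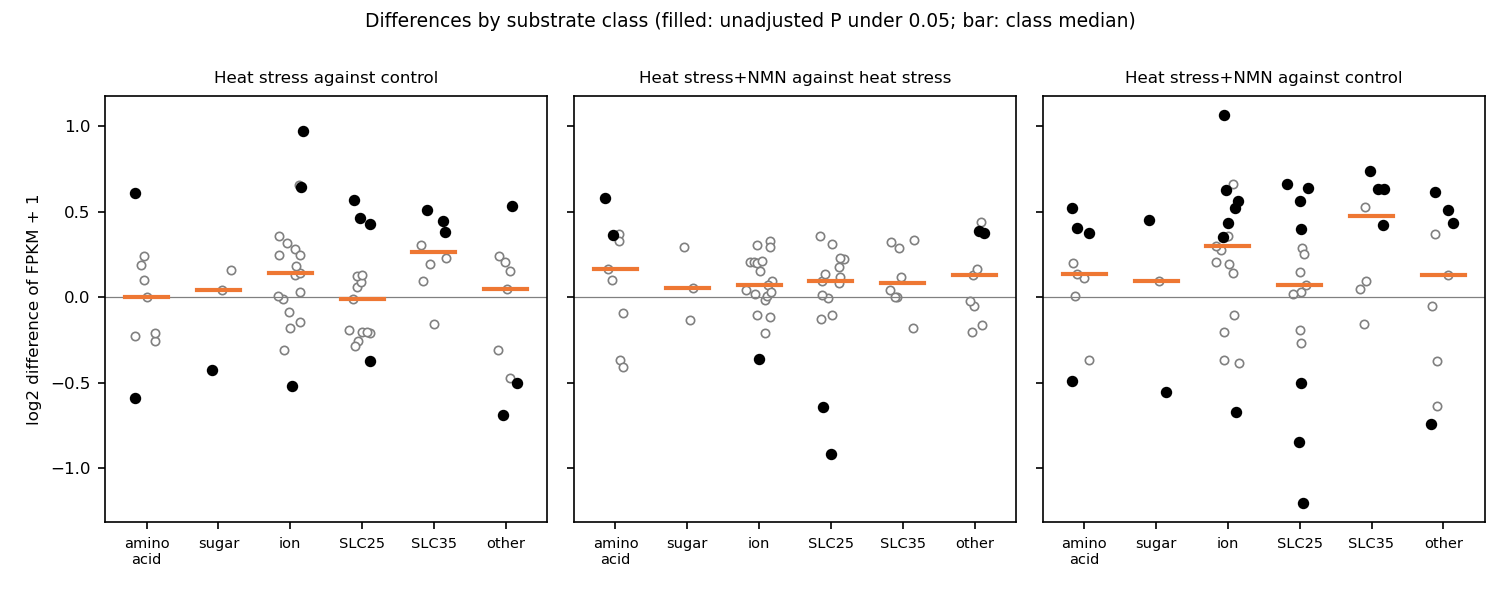
Log2 differences of FPKM + 1 for the members in each substrate class, in one panel per comparison, with filled points for an unadjusted P under 0.05 and a bar at the class median; SLC7A6OS is not drawn. Called members lie on both sides of 0 in every class drawn but SLC35 in the NMN against control panel, and the SLC35 class has the highest median there, 0.47.

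Zinc carriers were the largest group among the ion carriers, with 3 members of SLC30 and 7 of SLC39 out of 24 rows of both families. In heat-stressed oocytes 9 of 10 had a higher mean than in control, of which 2 were called. In NMN-supplemented oocytes 9 of 10 were higher than in control, of which 5 were called, and SLC39A13 was called lower. SLC39A9 and SLC39A10 had control means of 0.853 and 0.885 FPKM and passed the limit through the heated groups, so the choice itself favours these counts. The median log2 differences of the 10 were 0.28 and 0.48. Under the same-sum scaling, which LOC100513953 in heat-stressed replicate 1 enters, 8 and 9 of 10 were higher with medians of 0.05 and 0.50 and 0 and 1 called. Of all genes 55.1% and 59.6% were higher in these comparisons, and 12.7% and 25.6% were called higher. SLC30A1, the zinc exporter of the plasma membrane, and SLC30A4, which loads zinc into vesicles, had the largest differences among the called members that were higher after heat stress. The 250 bases before their annotated starts are shown because both genes differ the same way and SLC30A1 is a known target of the metal-responsive factor MTF1. Capitals mark matches to the metal response element core TGCGCNC, searched with TGCACNC on both strands (RefSeq, Sscrofa11.1, plus strand, chr9:131633336-131633585 for SLC30A1 and chr1:126236721-126236970 for SLC30A4).
SLC30A1: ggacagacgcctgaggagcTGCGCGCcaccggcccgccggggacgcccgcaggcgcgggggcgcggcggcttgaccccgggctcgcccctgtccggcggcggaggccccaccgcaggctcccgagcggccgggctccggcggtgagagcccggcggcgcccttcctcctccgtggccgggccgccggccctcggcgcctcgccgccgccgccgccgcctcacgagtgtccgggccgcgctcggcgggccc
SLC30A4: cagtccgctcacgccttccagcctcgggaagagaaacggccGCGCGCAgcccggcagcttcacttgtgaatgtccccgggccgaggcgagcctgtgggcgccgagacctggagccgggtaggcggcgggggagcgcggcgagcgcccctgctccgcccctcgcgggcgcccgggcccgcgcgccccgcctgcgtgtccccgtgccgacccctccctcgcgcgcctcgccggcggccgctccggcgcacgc
The match lies 231 to 225 bases before the start in SLC30A1 and 209 to 203 before it in SLC30A4, where it is read on the other strand. Either core was found in the same window of 20 of 64 members (31.2%) and of 25.6% of 4701 genes with a window. TGCGCNC alone was found in 26.6% of the members and 18.5% of the genes. The pair of heat shock units GAANNTTC or TTCNNGAA occurred in 10 of 64 members (15.6%) and 10.7% of the genes. The windows of the members had a median GC content of 63.8%, against 58.8%, and the motifs were chosen after the values had been seen. GC content was 84.8% in the window of SLC30A1 and 79.6% in that of SLC30A4. A match describes letters in the window and shows no binding.

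SLC30A1 (chr9:131633586-131636934) was at 7.96 and 5.25 FPKM in control, 16.9 and 11.0 after heat stress and 13.7 and 15.7 with NMN. Its means were 6.61 ± 1.92, 13.98 ± 4.17 and 14.7 ± 1.37 FPKM (SD, n = 2 each). Both stressed groups lay above control without overlap and overlapped each other. The log2 difference was 0.97 ± 0.26 (SE) after heat stress, with an adjusted P = 0.142 (limma), and 1.06 ± 0.26 in NMN-supplemented oocytes against control, with an adjusted P = 0.0422. SLC30A4 (chr1:126236971-126268102) was likewise higher in both heated groups, with 6.83 and 5.52 FPKM in control, 10.4 and 9.94 under heat stress and 10.7 and 9.41 with heat and NMN. It differed by 0.64 ± 0.14 after heat stress (adjusted P = 0.122) and rose by 0.63 ± 0.14 with heat and NMN against control (adjusted P = 0.0348). Between the heated groups, SLC30A1 differed by 0.09 ± 0.26 and SLC30A4 by -0.02 ± 0.14, which is within the spread of the replicates. Together with SLC30A6, a Golgi zinc carrier, these genes made up 3.15% and 2.43% of the members' summed FPKM in control, 5.47% and 4.94% under heat stress and 4.97% and 5.21% with heat and NMN. Without control replicate 2 the heat difference of SLC30A1 was 0.71 and no longer called.

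Among the importers, SLC39A6 and SLC39A10, which act at the plasma membrane, were higher with heat and NMN than in control, by 0.52 ± 0.18 (adjusted P = 0.0863) and 0.57 ± 0.15 (adjusted P = 0.0537), and both are listed in loci shared with another gene. SLC39A10 went from 1.09 and 0.677 FPKM in control through 1.28 and 1.53 in heat-stressed to 1.71 and 1.84 in NMN-supplemented oocytes, so no pair of groups overlapped. Its control mean was under the limit of 1 FPKM, so the choice itself favours its differences from control. SLC39A14, which also carries iron and manganese, was higher by 0.43 ± 0.17 against control (adjusted P = 0.112). SLC39A13, which releases zinc from the Golgi and vesicles, was the zinc carrier that went the other way. It was at 3.02 and 2.67 FPKM in control, 1.98 and 2.23 after heat stress and 1.19 and 1.65 with NMN. The 3 groups did not overlap, and it fell by 0.67 on the log2 scale (SE 0.14) in NMN-supplemented oocytes against control, with an adjusted P = 0.0333. SLC39A1, a plasma membrane importer, had a log2 difference of 0.65 ± 0.35 after heat stress, but its control and heat-stressed samples overlapped (2.76 and 5.16 against 9.01 and 4.73 FPKM). The remaining zinc carriers SLC30A6, SLC39A7 and SLC39A9 were called in no comparison.

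**Figure D3:**
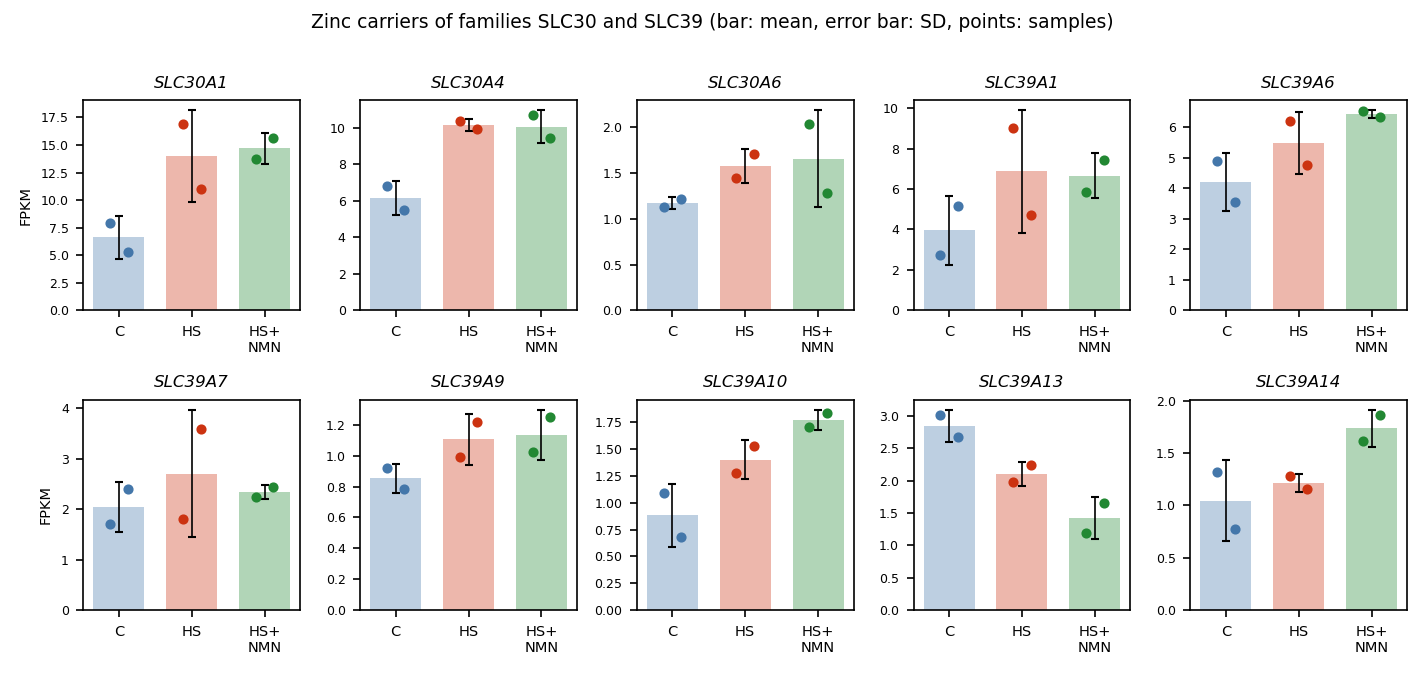
FPKM of the 10 zinc carriers without heat (C), with heat stress (HS) and with heat stress and NMN (HS+NMN), with bars for the mean of 2 samples, error bars for the SD and points for the samples, and a separate axis from 0 for each gene. Control is lowest in 9 of 10 panels and highest in the panel of SLC39A13.

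The copper carrier SLC31A2 was at 41.6 and 41.3 FPKM in control, 44.9 and 33.7 under heat stress and 36.3 and 35.3 with heat and NMN, and was called in no comparison. SLC31A1, the high-affinity copper importer, was at 1.18 and 0.735, 0.785 and 1.21, and 1.51 and 1.48 FPKM. Only the NMN-supplemented samples lay above both other groups (0.36 ± 0.18 against control, adjusted P = 0.179). Only their mean reached the limit of 1 FPKM, so the choice itself favours this difference. Of the 7 members classed as carriers of inorganic ions, SLC26A11, a sulfate and chloride carrier, was lower after heat stress by -0.52 ± 0.19 (adjusted P = 0.197). The magnesium carrier SLC41A2 was higher with heat and NMN than in control by 0.35 ± 0.12 (adjusted P = 0.0908). Its control mean of 0.919 FPKM was under the limit, so the choice itself favours this difference. The phosphate importer SLC20A1, the potassium-chloride cotransporter SLC12A5, the anion exchanger SLC26A4 and the sodium-proton exchanger SLC9A7 were called in none. SLC26A11 was no longer called without either control sample or without heat-stressed replicate 1 (-0.32).

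Of the 15 members of the mitochondrial family SLC25, 3 were higher and 1 was lower in heat-stressed than in control oocytes at an unadjusted P under 0.05, which is 26.7% against 22.8% of all genes. With heat and NMN against control 4 were higher and 3 lower, or 46.7% against 41.3% of all genes. Of these 3 rose and 2 fell at an adjusted P under 0.05, which 21.5% of all genes had. The class medians were -0.01 and 0.07, and the called members lay on both sides of 0. Under the same-sum scaling 3 of 15 were higher and 12 lower with heat, with a median of -0.29 and 0 called, and 1 was called with heat and NMN against control. SLC25A51 (chr1:238638282-238667612) carries NAD+ into mitochondria. It was at 14.7 and 12.7 FPKM in control, 21.3 and 20.1 after heat stress and 24.3 and 20.3 with NMN. Both heated groups lay above control and overlapped each other. The log2 difference from control was 0.57 ± 0.14 with heat (adjusted P = 0.134) and 0.66 ± 0.14 with heat and NMN (adjusted P = 0.032), while NMN-supplemented and heat-stressed oocytes differed by 0.09 ± 0.14. Under the same-sum scaling, which LOC100513953 in heat-stressed replicate 1 enters, the differences from control were 0.22 and 0.68 and neither was called. With LOC100513953 left out of the sum both were called.

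SLC25A32 (chr4:33704810-33727796), the mitochondrial folate and FAD carrier, followed the same order at higher levels. Its samples were at 18.9 and 20.1 FPKM in control, 26.3 and 28.4 under heat stress and 33.5 and 28.6 with heat and NMN. No pair of groups overlapped, and the log2 difference was 0.46 ± 0.13 with heat (adjusted P = 0.142) and 0.64 ± 0.13 with heat and NMN (adjusted P = 0.0293). SLC25A40, a mitochondrial glutathione carrier, went from 1.32 and 1.40 FPKM in control to 2.27 and 2.09 under heat stress and 2.40 and 2.59 with heat and NMN. It was higher by 0.43 ± 0.11 with heat (adjusted P = 0.139) and rose by 0.57 ± 0.11 with heat and NMN (adjusted P = 0.0294). SLC25A32 and SLC25A40 are listed in loci shared with other genes, so their reads could be split in several ways. Without heat-stressed replicate 2 the heat difference of SLC25A32 was 0.41 and no longer called. SLC25A13, an aspartate and glutamate carrier, was higher with heat and NMN by 0.40 ± 0.13 (adjusted P = 0.0734).

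SLC25A11 (chr12:51970794-51973668), the 2-oxoglutarate carrier of the malate-aspartate shuttle, had the largest difference of any member between NMN-supplemented and control oocytes. It was at 3.17 and 2.58 FPKM in control, 2.16 and 2.18 after heat stress and 0.576 and 0.784 with NMN. The groups did not overlap, and the NMN-supplemented mean was 0.237 times that of control. SLC25A11 passed the limit of 1 FPKM through control and heat stress, with an NMN-supplemented mean of 0.680 FPKM, so the choice itself favours this difference. It fell by 1.20 on the log2 scale (SE 0.14) against control, with an adjusted P = 0.021, and was lower than in heat-stressed oocytes by -0.92 ± 0.14, with an adjusted P = 0.216. Its locus is shared with another gene. Both SLC25A11 differences kept an unadjusted P under 0.05 in all alternatives in which the gene was fitted. SLC25A17, which carries cofactors such as NAD+ and coenzyme A into peroxisomes, was at 2.06 and 2.21 FPKM in control, 1.65 and 1.21 under heat stress and 1.33 and 1.11 with heat and NMN. It was lower with heat by -0.37 ± 0.14 (adjusted P = 0.21) and with heat and NMN by -0.50 ± 0.14 (adjusted P = 0.0595). The heat call was lost without heat-stressed replicate 2 (-0.24) and without either control or either NMN sample. The call with heat and NMN was lost without control replicate 2 (-0.46) or NMN replicate 2 (-0.43).

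The ADP/ATP carriers exchange mitochondrial ATP for cytosolic ADP and are encoded by closely similar genes, so the split of reads between them is uncertain. SLC25A6 was at 37.2 and 50.8 FPKM in control, 43.4 and 32.5 after heat stress and 24.3 and 23.1 with NMN. Both NMN-supplemented samples lay below the other 4. It fell by 0.85 on the log2 scale (SE 0.20) against control, with an adjusted P = 0.0417, and was lower than in heat-stressed oocytes by -0.64 ± 0.20, with an adjusted P = 0.34. SLC25A5 was at 45.9 and 55.7, 46.1 and 42.1, and 56.7 and 46.9 FPKM. Its control samples overlapped both other groups, while both NMN-supplemented samples lay above both heat-stressed ones, and it was called in no comparison. SLC25A4, the muscle form, and SLC25A31, the germ cell form, were at 2.44 to 3.79 and 1.26 to 2.56 FPKM and were called in no comparison. SLC25A6 made up 42.5% and 45.6% of the sum of these 4 genes in control, 45.3% and 41.5% under heat stress and 28.3% and 30.8% with heat and NMN. SLC25A5 made up 62.5% to 66.0% with NMN and 48.1% to 53.8% in the other samples. An exact permutation test of 2 samples against 2 cannot go below a two-sided P = 0.333 and was not used for these shares. Without heat-stressed replicate 1 the difference of SLC25A6 between NMN-supplemented and heat-stressed oocytes was -0.44 and not called, and the call was also lost without either NMN sample (-0.68 and -0.61).

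**Figure D4:**
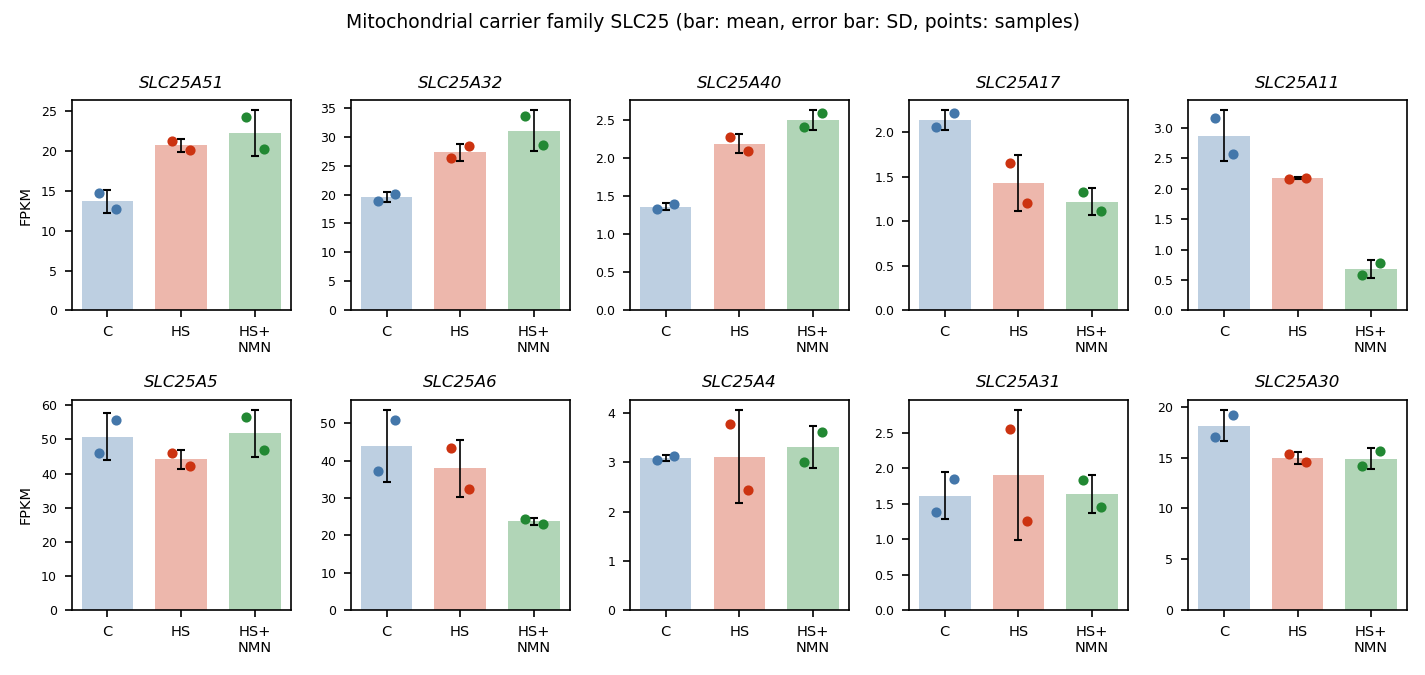
FPKM of 10 SLC25 carriers without heat (C), with heat stress (HS) and with heat stress and NMN (HS+NMN), with bars for the mean of 2 samples, error bars for the SD, points for the samples and a separate axis from 0 for each gene. SLC25A51, SLC25A32 and SLC25A40 are higher in both heated groups than in control, SLC25A17 and SLC25A11 are lower, and SLC25A6 is lowest with NMN while the control samples of SLC25A5 overlap both other groups.

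Amino acid carriers showed no common direction with heat, with 4 of 9 higher and 5 lower. SLC1A5 was at 70.7 and 46.7 FPKM in control, 47.7 and 48.1 under heat stress and 60.5 and 64.0 with heat and NMN, and its control samples spanned those of both other groups. Of 9 members 2 were called with heat, against 22.8% of all genes, namely the cationic amino acid carrier SLC7A3, lower by -0.59 ± 0.18 (adjusted P = 0.168), and the system A carrier SLC38A2, higher by 0.61 ± 0.24 (adjusted P = 0.216). SLC7A3 went from 2.92 and 2.44 FPKM in control to 1.53 and 1.35 under heat stress and 2.04 and 1.24 with heat and NMN. SLC38A2 was at 1.03 and 0.399 in control, 1.22 and 1.98 after heat stress and 1.03 and 0.839 with NMN. Its group means were 0.713 FPKM in control, 1.60 under heat stress and 0.934 with heat and NMN. It thus passed the limit of 1 FPKM only through heat stress, so the choice itself favours its heat difference. Its samples under heat alone lay above all others, but without control replicate 2 the heat difference was 0.34 and not called, nor was it called without heat-stressed replicate 2 (0.40) or without either NMN sample. The heat call of SLC7A3 was lost without control replicate 1 (-0.50) or heat-stressed replicate 2 (-0.54).

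With NMN added to heat, SLC43A3 and SLC7A8 were called higher. SLC43A3 (chr2:13490913-13514518) belongs to an amino acid carrier family but is known to carry purine nucleobases. It was at 5.75 and 6.56 FPKM in control, 5.07 and 5.29 under heat stress and 9.05 and 7.52 with heat and NMN. The NMN-supplemented samples were above the other 4, by 0.58 ± 0.13 against heat-stressed oocytes (adjusted P = 0.244), which was called in every alternative tried, and by 0.37 ± 0.13 against control (adjusted P = 0.0952). The SLC43A3 call against control was lost without control replicate 1 (0.29), without NMN replicate 1 (0.25) or without either heat-stressed sample. SLC7A8, a light-subunit carrier of large neutral amino acids, was at 1.34 and 1.33, 0.990 and 0.998, and 1.55 and 1.58 FPKM. Its replicates were closer than in most members, and it was higher with NMN than with heat alone by 0.36 ± 0.11 (adjusted P = 0.339). Its heat-stressed mean of 0.994 FPKM was just under the limit, so the choice itself favours this difference. The taurine carrier SLC6A6 and the glycine carrier SLC6A5 were higher with heat and NMN than in control, by 0.52 ± 0.15 (adjusted P = 0.0639) and 0.40 ± 0.12 (adjusted P = 0.0621). SLC6A20 and SLC6A15, carriers of proline and of branched neutral amino acids, were called in no comparison.

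Only 3 sugar carriers reached the limit. SLC2A8, an intracellular glucose carrier, was at 1.61 and 1.37 FPKM in control, 0.912 and 0.797 after heat stress and 0.653 and 0.732 with NMN. No pair of groups overlapped. Its group means were 1.49 FPKM in control, 0.854 under heat stress and 0.693 with heat and NMN. SLC2A8 thus passed the limit of 1 FPKM only through control, and the choice itself favours the differences given next. It fell by 0.56 on the log2 scale (SE 0.12) with heat and NMN against control, with an adjusted P = 0.0361, and was lower with heat alone by -0.43 ± 0.12, with an adjusted P = 0.159. SLC45A3, of a family of proton-coupled sugar carriers, was at 7.62 and 6.25, 8.11 and 7.56, and 9.58 and 10.04 FPKM and was higher with heat and NMN than in control by 0.45 ± 0.13 (adjusted P = 0.06). SLC45A4 of the same family was called in no comparison. The call of SLC2A8 with heat was lost without control replicate 1 (-0.36) and without heat-stressed replicate 2 (-0.38). That of SLC45A3 with heat and NMN was lost without control replicate 2 (0.33) or without either NMN sample (0.48 and 0.42).

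Nucleotide sugar carriers of family SLC35 were higher than in control in 7 of 8 members both with heat and with heat and NMN. Of these 3 and 4 were called, and none was called lower. SLC35E1 and SLC35E3 had control means of 0.920 and 0.776 FPKM and passed the limit through heated samples, so the choice itself favours these counts. Of all genes 55.1% and 59.6% were higher in these comparisons, and 12.7% and 25.6% were called higher. Class medians were 0.27 and 0.47, and under the same-sum scaling 6 and 7 of 8 were higher with medians of 0.07 and 0.50 and 0 and 1 called. SLC35A5 was at 1.87 and 1.68 FPKM in control, 2.45 and 3.14 under heat stress and 3.46 and 3.78 with heat and NMN. Its locus is shared with another gene. No pair of groups overlapped, and it rose by 0.74 ± 0.14 with heat and NMN against control (adjusted P = 0.0273). SLC35D1, which carries UDP-glucuronic acid, was at 5.57 and 4.01, 5.84 and 6.36, and 7.60 and 8.17 FPKM and rose by 0.63 ± 0.16 in the same comparison (adjusted P = 0.0466). SLC35G1, whose transported substrate is less well known, went from 18.98 and 18.03 in control to 30.8 and 23.3 and to 33.4 and 25.6 FPKM. It was higher by 0.51 ± 0.19 with heat (adjusted P = 0.202) and by 0.63 ± 0.19 with heat and NMN (adjusted P = 0.0642). SLC35A1, the CMP-sialic acid carrier, was higher by 0.38 ± 0.14 and 0.42 ± 0.14 (adjusted P = 0.205 and 0.0837). SLC35B2, the highest of the family, was the member that was not higher, at 50.2 and 46.1, 49.9 and 36.9, and 43.8 and 42.2 FPKM. The heat call of SLC35G1 was lost without either control sample or without heat-stressed replicate 1 (0.32), and that of SLC35A5 without control replicate 2 (0.40) or heat-stressed replicate 2 (0.32). For SLC35G1 the call with heat and NMN was also lost without either control sample (0.67 and 0.60) or without NMN replicate 1 (0.45).

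Among the carriers of other substrates, SLC46A2 (chr1:253559545-253571015), first described in thymic stroma, was the most abundant and was lower in both heated groups. It was at 32.6 and 35.9 FPKM in control, 24.3 and 17.7 after heat stress and 19.5 and 20.5 with NMN. Control lay above all 4 heated samples, which overlapped each other. It was lower with heat by -0.69 ± 0.17 (adjusted P = 0.134), which was called in every alternative tried, and fell by 0.74 on the log2 scale (SE 0.17) with heat and NMN (adjusted P = 0.0371). SLC16A1, the carrier of lactate and pyruvate, went from 2.56 and 3.01 FPKM in control through 3.37 and 3.55 in heat-stressed to 5.15 and 4.44 in NMN-supplemented oocytes. The 3 groups did not overlap, and it rose by 0.61 ± 0.13 with heat and NMN against control (adjusted P = 0.0316). Against heat alone it was higher by 0.38 ± 0.13 (adjusted P = 0.35), as was SLC17A5, the lysosomal sialic acid carrier, by 0.39 ± 0.13 (adjusted P = 0.35). Both of these calls against heat alone were lost without either heat-stressed sample (0.35 to 0.41) or without NMN replicate 1 (0.29 and 0.36), and that of SLC17A5 also without NMN replicate 2 (0.41). SLC13A4, a sulfate carrier placed here with its family, whose members carry carboxylates or sulfate, was higher with heat by 0.53 ± 0.15 (adjusted P = 0.149) and SLC10A3, of the bile acid carrier family, lower by -0.50 ± 0.20 (adjusted P = 0.216), a call that was lost without either control sample or without heat-stressed replicate 1 (-0.37). SLC16A1 and SLC13A4 are listed in loci shared with other genes. The ascorbate carrier SLC23A1, the haem carrier SLC48A1, the thiamine carrier SLC19A2, the fatty acid carrier SLC27A3 and SLC7A6OS were called in no comparison.

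**Figure D5:**
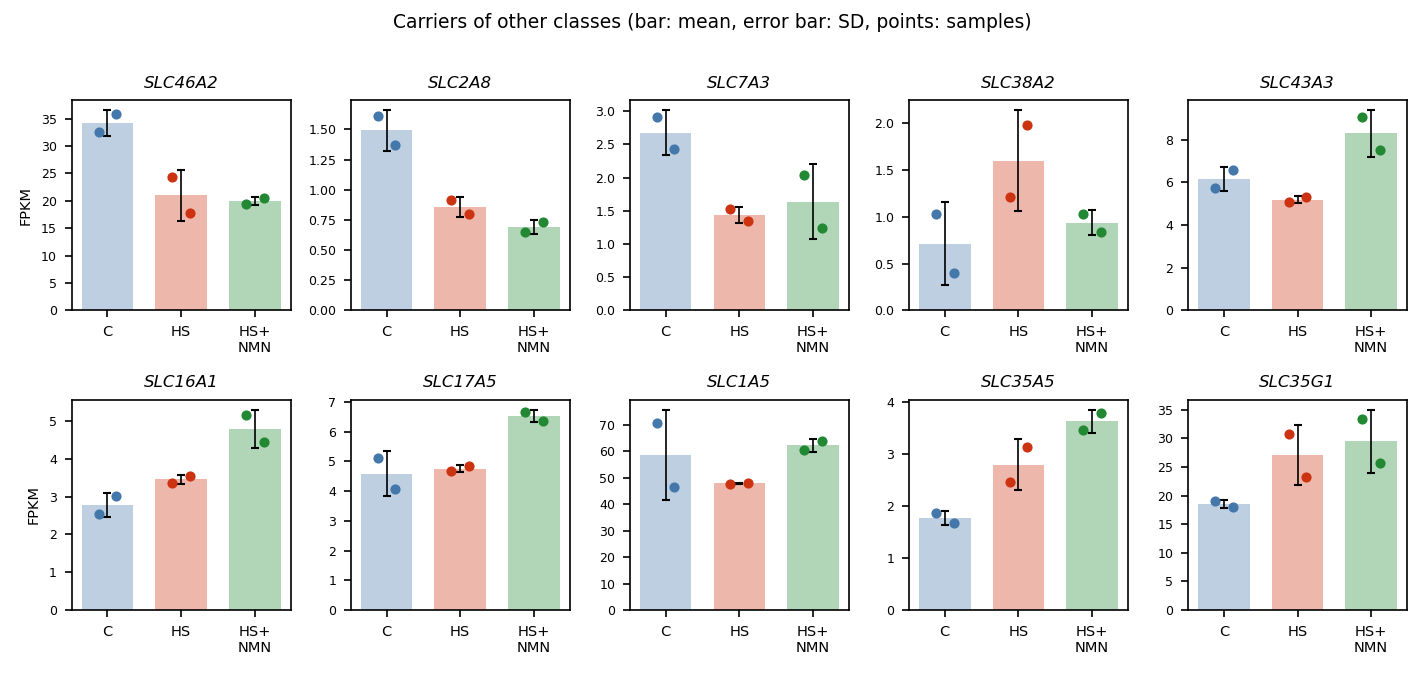
FPKM of 10 carriers of other classes without heat (C), with heat stress (HS) and with heat stress and NMN (HS+NMN), with bars for the mean of 2 samples, error bars for the SD, points for the samples and a separate axis from 0 for each gene. SLC46A2, SLC2A8 and SLC7A3 are highest in control, SLC43A3, SLC16A1 and SLC17A5 are highest with NMN, and the control samples of SLC1A5 span the other groups.

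Genes around the carriers were read from lists as well. Of 46 listed transporters and related genes whose symbol is not SLC followed by a number, 7 were fitted. All of these were higher with heat and NMN than in control, and 5 of them were called. MFSD14B, 1 of the 5, was at 1.03 and 0.656 FPKM in control, a mean under the limit of 1 FPKM. It passed through the heated groups, so the choice itself favours these counts. Of the 7, only MTCH2 of the mitochondrial carrier fold had an adjusted P under 0.05 with heat and NMN against control (limma, adjusted P = 0.0281). MTCH2 was at 2.43 and 2.09 FPKM in control, 4.15 and 3.33 under heat stress and 4.34 and 4.27 with heat and NMN. Listed genes under the limit were not fitted and went both ways. MTCH1 was at 1.30 and 1.39, 0.404 and 0.640, and 0.438 and 0.300 FPKM in the same order. XPR1 was at 0.124 and 0.183, 0.274 and 0.316, and 0.325 and 0.279 FPKM. Of all genes 59.6% were higher in the comparison of heat and NMN against control, 41.3% were called and 21.5% had an adjusted P under 0.05. Of 10 fitted partners, pumps and regulators of carriers, 6 were called in it and 5 had an adjusted P under 0.05. The calcium pump ATP2B1 rose by 0.79 ± 0.14 (adjusted P = 0.0254), and FXYD6, a regulator of the sodium pump, fell by 1.18 on the log2 scale (SE 0.23, adjusted P = 0.028). With heat and NMN the FXYD6 samples were at 0.631 and 1.03 FPKM, a mean under the limit of 1 FPKM. FXYD6 passed through control and heat stress, so the choice itself favours its fall. ATF4, a stress-responsive transcription factor, was at 21.8 and 21.1 FPKM in control, 12.5 and 15.5 after heat stress and 7.99 and 9.20 with NMN. Its groups did not overlap, and it fell by 1.23 on the log2 scale (SE 0.14) with heat and NMN against control, with an adjusted P = 0.021.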

How the data were processed

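RNA-seq of 6 pools of porcine oocytes was analysed, 2 per group, and the groups were taken from the treatment given in the labels. Per the methods, the authors used cutadapt for read trimming and tophat2 for alignment to susScr11 (the Sscrofa11.1 pig assembly), and the submitters' processing notes name Cufflinks 2.2.1, Cuffnorm and Cuffdiff without saying which step each served. The authors deposited FPKM values for 29861 genes and 6 samples, and the same table holds their log2 fold changes, p-values and q-values, as do 2 lists of differentially expressed genes. The authors' fold changes and p-values were not used.

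FPKM were log2-transformed after adding 1. The 4713 genes with a mean of at least 1 FPKM were fitted in one linear model of the 3 groups with limma 3.58.1 (R 4.3.3), moderated by empirical Bayes with a variance trend, and adjusted P-values (Benjamini-Hochberg) cover all of them. On simulated data of 4713 genes for heat stress against control, 98% of the genes changed by 1 on the log2 scale, 100% of those changed by 2 and 4.764% of the unchanged genes had an unadjusted P under 0.05. The simulated noise was normal and independent, and changes were added whatever the level of the gene. These shares therefore check the fit and do not give the error rates of the real calls, which depended on single samples. Gene positions and windows of 250 bases come from RefSeq of Sscrofa11.1, and all 64 members matched by symbol. Levels are compared between genes per length, as FPKM. A locus given to several genes (17 members) leaves the split of reads uncertain. Python 3.11.15, pandas 2.3.3 and matplotlib 3.10.9 were used for the other steps.

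Members, classes, gene lists and tests were chosen with earlier results of these data known. The members named were the 3 highest of each class, the 3 with the largest called differences without overlap in each comparison and direction, those in lists of NAD, redox and oocyte fuel carriers, those next to the limit of 1 FPKM, and of the surrounding genes the 2 with the smallest P in each comparison. The values of 1 member are not reported here. The other members and non-members given values were chosen after their values were seen. Same-numbered samples of different groups did not deviate together (correlations of -0.03, 0.01 and -0.01 over 4713 genes), so the replicate number pairs no samples and was a block only as an alternative. Alternatives were 0.1 FPKM in place of 1 as the pseudocount, a mean limit of 0.1 or 5 FPKM or none, quantile normalization, scaling to the same median or the same sum of nuclear FPKM, the replicate block, only the compared groups, no variance trend, an absolute log2 difference over 1, and leaving out each sample. Scaling to the nuclear sum without LOC100513953 and using only members with a locus of their own (47) were added after seeing the data.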

Additional observations from a re-analysis of the deposited data

How the results depend on the processing

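Of the member counts and class medians, 326 values stayed within 1.5 times the count or within the spread of the samples, 55 moved past it and none of the called values turned its sign. With a minimum mean of 5 FPKM 22 members were left, of which 7, 2 and 12 were called with heat against control, with NMN against heat and with heat and NMN against control. Median log2 differences with that minimum were -0.12 (all members), -0.23 (amino acid), 0.16 (sugar) and 0.48 (ion) for heat, 0.48 (amino acid) and 0.29 (sugar) for NMN against heat, and 0.26 (all), 0.45 (sugar), 0.57 (ion) and 0.63 (SLC35) for heat and NMN against control. Scaling to the same nuclear sum gave 5, 3 and 3 called members. Its medians were -0.13 (all), -0.27 (amino acid), -0.17 (sugar), -0.023 (ion), -0.29 (SLC25) and 0.074 (SLC35) for heat, and 0.37 (all), 0.38 (amino acid), 0.28 (sugar), 0.36 (ion), 0.38 (SLC25) and 0.43 (SLC35) for NMN against heat. With LOC100513953 left out of that sum, the members' median for NMN against heat was 0.14. An absolute log2 difference over 1 left 0, 0 and 2 called members. With a pseudocount of 0.1 FPKM the medians against control with heat and NMN were 0.33 (all) and 0.47 (ion). Members with a locus of their own had medians of 0.050 (all) and -0.21 (amino acid) for heat, 0.33 (amino acid) for NMN against heat and 0.15 (all) for heat and NMN against control. The cause of these shifts was not tested, except that a higher minimum leaves fewer genes.

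Leaving out one sample in turn gave 8 to 15, 2 to 10 and 16 to 27 called members in the 3 comparisons. The medians of all members ranged from 0.0094 to 0.14, 0.068 to 0.14 and 0.16 to 0.25. Amino acid medians ranged from -0.20 to 0.14 with heat and -0.069 to 0.29 with heat and NMN, and sugar medians from -0.071 to 0.15 and -0.014 to 0.21. The SLC25 median with heat ranged from -0.25 to 0.014 and the SLC35 median of NMN against heat from -0.082 to 0.18. With the replicate block 11, 5 and 25 members were called, 11, 5 and 25 of them also called without it, and the numbers share only a label. Of 49 called differences of named genes 10 kept an unadjusted P under 0.05 in every alternative, 39 lost it in at least one and 0 changed sign. Of 62 that were not called, 35 changed sign and 14 reached an unadjusted P under 0.05 in at least one. With 2 samples per group and no read counts, counting error could not be separated from the spread between samples.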
